A study of Homo sapiens with 6 samples.

Results

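The genes described here encode the proteins that prepare DNA replication origins, open them and copy the DNA. They were chosen by name, as 56 genes of origin licensing, helicase activation, the replicative polymerases and the chromatin factors that follow the fork. Each of the 56 symbols matched 1 of the 58302 genes in the deposited table, and all 56 passed the filter on low counts that left 15572 genes for the test. RNA had been sequenced from cells of MDA-MB-231-DR, which resist doxorubicin and stem from MDA-MB-231, a line of triple-negative breast cancer, in 3 control libraries and in 3 libraries of cells treated with CYT (cyperotundone, a compound from sedge). The study asked which transcripts CYT changed in resistant cells. According to the methods, the resistant line was kept in medium with a low level of doxorubicin, which both groups would share, and the CYT dose and time of these libraries are not given in the sources used here. Both groups come from 1 cell line. The methods speak of 3 independent experiments for the study's data in general, but neither they nor the labels say whether the libraries of a group came from separate cultures, so p-values measure the spread between these libraries, which may be technical.

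Replication starts from sites that are licensed once per cell cycle. The origin recognition complex (ORC1 to ORC6) binds DNA and, with CDC6 and CDT1, loads the MCM2 to MCM7 helicase, while geminin (GMNN) blocks CDT1 once S phase has begun. The kinase CDC7 with DBF4 then allows CDC45 and the GINS complex to join and activate the helicase, primase with polymerase alpha starts each strand, and polymerases delta and epsilon extend it on the sliding clamp PCNA. Many of these genes are known targets of E2F transcription factors and are transcribed together as cells approach S phase.

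A gene is said to be called where edgeR's quasi-likelihood test over all 6 libraries, with TMM scaling and no other correction, gave an adjusted p under 0.05, and calls of any other fit are named as such. Because the genes are known for shared control, their start sites were searched for the E2F motifs TTTCCCGC, TTTCGCGC, TTTGCCGC and TTTGGCGC on both strands, in the RefSeq window of 250 bases before to 50 bases after each gene's start (GRCh38.p14). The table held 49 of the 56 genes. DNA2, GINS4, MCM4, MCM5, POLD3, RPA2 and RPA3 were not matched. At least 1 of the motifs was in 23 of the 49 windows (46.9%), against 3.99% of all 27305 genes in the table and 6.71% of its 10513 tested genes. Of the 23 genes with a motif, 3 were called higher in CYT-treated cells, 2 were called lower and 18 were not called (21.7% called, against 28.6% of all tested genes), and their median log2 fold change was -0.15, against -0.28 in the windows without one. CCAAT was in 29 of the 49 windows (59.2%, against 39.7% of all windows), and the short cell cycle element TTTGAA was in 3 (6.12%, against 18.2%). A match describes letters in a window and is not a binding site. Printed here are stretches upstream of all annotated exons of 3 genes that differed between the groups, MCM6 (chr2:135876444-135876693, minus strand), MCM3 (chr6:52284882-52284992, minus strand) and ORC5 (chr7:104208048-104208263, minus strand), with the E2F motifs in capitals. MCM6, which was higher after CYT, and MCM3, which was lower, carry E2F motifs, and ORC5, which was lower, has none in its window. These 3 are examples among the called genes, and whether the motifs bear on the changes was not tested.
MCM6: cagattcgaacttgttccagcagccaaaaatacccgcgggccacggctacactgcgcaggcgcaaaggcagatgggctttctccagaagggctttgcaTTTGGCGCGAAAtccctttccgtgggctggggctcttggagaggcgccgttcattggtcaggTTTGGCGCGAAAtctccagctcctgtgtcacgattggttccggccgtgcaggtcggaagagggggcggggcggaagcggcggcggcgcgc
MCM3: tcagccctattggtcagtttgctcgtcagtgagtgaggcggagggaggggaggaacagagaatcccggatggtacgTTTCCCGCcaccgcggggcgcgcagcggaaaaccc
ORC5: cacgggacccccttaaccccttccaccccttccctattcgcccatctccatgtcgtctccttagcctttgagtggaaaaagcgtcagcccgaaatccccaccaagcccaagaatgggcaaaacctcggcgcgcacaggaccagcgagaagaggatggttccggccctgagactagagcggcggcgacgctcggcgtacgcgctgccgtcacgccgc
Each capital run in MCM6 holds TTTGGCGC on the printed strand and, overlapping it, TTTCGCGC on the other strand. MCM6 has 4 motif matches in its window, all of them in the printed stretch, and MCM3 has 2, of which 1 is printed.

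CYT did not move the replication genes in 1 direction. Of the 56 genes, 7 were higher and 5 were lower at an adjusted p under 0.05 (21.4%), against 28.6% of all tested genes (15.7% higher and 12.9% lower), a share near that background. GINS4, ASF1B, GINS3, ORC6, MCM6, MCM10 and CLSPN were higher, and ORC5, DNA2, PRIM2, GINS1 and MCM3 were lower. With the added criterion of an absolute log2 fold change over 1, which defines differentially expressed genes (DEGs) here, 6 were higher and 5 lower, against 15.2% and 12.2% of all genes (27.4% together). The CPM values (counts scaled to the TMM-normalized library size) of the groups did not overlap in 25 genes, 12 higher and 13 lower (44.6%), against 46.1% of all genes. The median log2 fold change of the 56 genes was -0.13, and that of all tested genes was 0.0064. Upper-quartile normalization moved both up alike, to 0.025 and 0.16, and the median of the 56 relative to that of all genes was -0.14 with TMM and -0.13 with upper-quartile normalization. Over all alternatives this relative median ran from -0.61 (no filter) to -0.037 (a mean of at least 5 CPM). As the RNA comes from whole cultures, a change in RNA per cell and a change in the share of cells in S phase cannot be told apart.

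**Figure D1:**
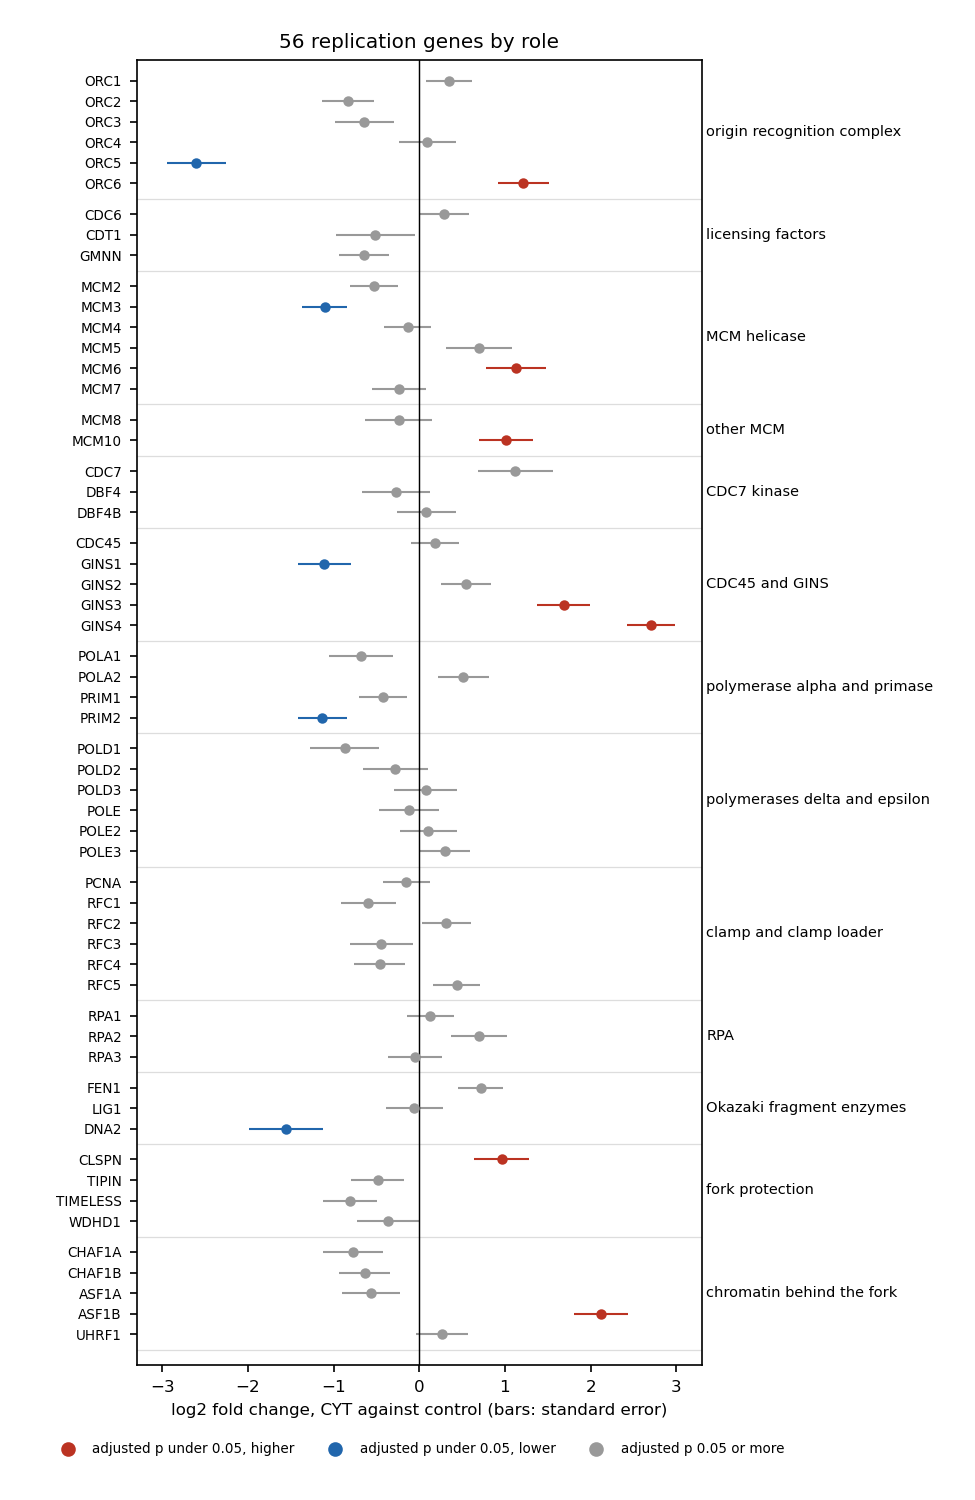
Log2 fold change of CYT against control for each of the 56 replication genes (x axis, points, with the standard error as bars), grouped by role. The 7 genes called higher reach 2.70 in GINS4, the 5 called lower reach -2.60 in ORC5, and most roles hold points on both sides of 0.

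The other 44 genes were not called. Their log2 fold changes lay between -0.87 (POLD1) and 1.12 (CDC7). Of all 56 genes, 16 had an unadjusted p under 0.05 (28.6%, against 40.9% of all tested genes), and 25 had a positive fold change (44.6%, against 50.3%). The calls of ORC5, GINS3, GINS4 and ASF1B held in all 16 alternative fits, 23 genes were called in none of them, and no called gene changed sign in any.

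Within the origin recognition complex, which marks the origins, ORC5 and ORC6 moved apart. ORC5, a subunit of the core ring (chromosome 7, 104126341 to 104208047, minus strand, GRCh38), had raw counts of 377, 744 and 472 in control libraries and of 86, 73 and 59 in CYT libraries. Every CYT library lay below every control library. The CPM was 32.3 ± 8.24 in control and 5.32 ± 0.697 in CYT-treated cells (SD, n = 3), and ORC5 fell by 2.60 on the log2 scale (SE 0.34, edgeR adjusted p = 0.00111), a level 6.07-fold lower. ORC6, the smallest subunit and the one least tied to the ring (chromosome 16, 46689643 to 46698394, plus strand), had counts of 639, 1057 and 689 against 1589, 1857 and 1170, with no overlap. Its CPM rose from 48.5 ± 8.38 to 112 ± 19.6 (SD, n = 3), with a log2 fold change of 1.21 (SE 0.30, edgeR adjusted p = 0.0142). The call of ORC6 was lost without control replicate 1 (edgeR adjusted p = 0.0693) and without control replicate 3 (0.0660).

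The other 4 subunits were not called by edgeR. ORC2 had counts of 365, 499 and 311 in control and 193, 223 and 135 in CYT libraries, which do not overlap, and a log2 fold change of -0.83 (edgeR adjusted p = 0.0674, 0.0259 with the replicate number as a block and 0.0134 with the GC content and length correction, and DESeq2 adjusted p = 0.0477). ORC1 was at 0.35, ORC3 at -0.64 and ORC4 at 0.10, and ORC3 was called lower by edgeR with the GC content and length correction (adjusted p = 0.0122). Summed over the 6 subunits in FPKM, a level per transcript length, the sum was 31.8, 46.5 and 35.0 in control and 36.5, 47.2 and 31.9 in CYT libraries. The sums overlap. The spread between the origin recognition subunits was wider after CYT, since the highest had 3.33 to 4.35 times the FPKM of the lowest in control libraries and 11.9 to 16.4 times in CYT libraries. The FPKM ratio of ORC6 to ORC5, chosen after its values were seen, was 1.09, 0.913 and 0.938 in control and 11.9, 16.4 and 12.7 in CYT libraries.

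None of the 3 licensing factors beside the complex was called by edgeR without a correction. CDC6, the ATPase that helps to load the helicase, had a log2 fold change of 0.29 (edgeR adjusted p = 0.489). CDT1, the loading partner, stood at -0.51 and its inhibitor geminin at -0.64, with counts of 611, 1103 and 768 against 492, 440 and 392. With the GC content and length correction GMNN was called lower (log2 fold change -0.77, edgeR adjusted p = 0.0317). The FPKM ratio of CDT1 to GMNN was 5.33, 1.83 and 3.22 in control and 4.16, 1.44 and 4.90 in CYT libraries, so the values overlap. Its mean difference on the log2 scale was -0.034, CYT minus control (exact two-sided permutation test, n = 3 per group, p = 1.0).

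In the MCM helicase, the motor of the fork, MCM3 fell and MCM6 rose. MCM3 (chromosome 6, 52264009 to 52284881, minus strand) had counts of 5009, 5397 and 3503 in control and of 1966, 1911 and 1517 in CYT libraries. Its CPM went from 283 ± 29.6 to 132 ± 9.79 (SD, n = 3), and MCM3 fell by 1.10 on the log2 scale (SE 0.26, edgeR adjusted p = 0.0129). This was not called without CYT replicate 3 (0.0591). MCM6 (chromosome 2, 135839626 to 135876426, minus strand) had counts of 1431, 2223 and 1543 against 2620, 4855 and 2089. The groups do not overlap in CPM, and CYT replicate 2 stands well above replicates 1 and 3. The CPM of MCM6 was 106 ± 15.4 in control and 232 ± 98.7 in CYT-treated cells (SD, n = 3), with a log2 fold change of 1.13 (SE 0.35, edgeR adjusted p = 0.0364). It was called in 10 of 16 alternatives, and not without control replicate 1 (0.129), 2 (0.0692) or 3 (0.109) or CYT replicate 1 (0.0552). Its log2 fold change ran from 0.72 to 1.33 in the fits that left out 1 library.

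MCM2, MCM4, MCM5 and MCM7 were not called. MCM2 had CPM values of 360, 285 and 302 against 210, 177 and 267, without overlap, and a log2 fold change of -0.53 (edgeR adjusted p = 0.185). MCM5 stood at 0.70, MCM4 at -0.14 and MCM7 at -0.24. The summed FPKM of MCM2 to MCM7 was 247, 227 and 225 in control and 217, 231 and 239 in CYT libraries. These sums overlap, as does the ratio of the highest to the lowest of the 6 genes (3.54 to 4.72 in control and 4.21 to 5.48 in CYT libraries), while their makeup differed. MCM3 made up 19.9% to 24.0% of the sum in control and 8.47% to 11.5% in CYT libraries, MCM2 made up 19.0% to 19.4% and 11.9% to 15.0%, and MCM6 made up 7.54% to 12.4% and 14.7% to 36.4%. The FPKM ratio of MCM6 to MCM3, chosen after its values were seen, was 0.360, 0.519 and 0.556 in control and 1.68, 3.20 and 1.74 in CYT libraries.

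**Figure D2:**
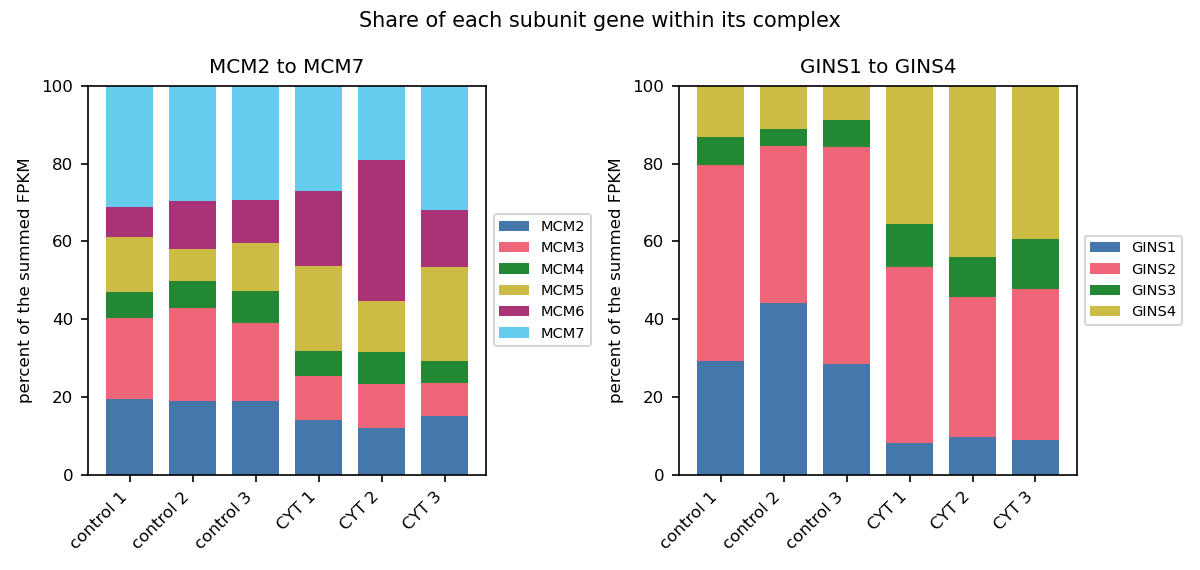
Percent of the summed FPKM (y axis) given by each subunit gene of MCM2 to MCM7 (left) and of GINS1 to GINS4 (right) in each library (x axis). MCM3 narrows and MCM6 widens in every CYT library, and GINS4 goes from 8.66% to 13.0% in control to 35.6% to 44.1% in CYT libraries while GINS1 narrows to 8.23% to 9.62%.

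MCM10, which binds the loaded helicase and helps to start unwinding (chromosome 10, 13161554 to 13211104, plus strand), was higher, and MCM8, a helicase of recombination, was not called (log2 fold change -0.24). MCM10 counts were 418, 509 and 430 in control and 596, 1038 and 669 in CYT libraries, with the groups apart and CYT replicate 2 the highest. From 28.0 ± 2.61 to 56.4 ± 16.2 CPM (SD, n = 3), the log2 fold change was 1.01 (SE 0.31, edgeR adjusted p = 0.0370). That call held in 9 of 16 alternatives, was lost with no filter (edgeR adjusted p = 0.0742), and was also lost without control replicate 1 (0.128), 2 (0.0946) or 3 (0.103) or CYT replicate 3 (0.0731).

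The kinase that fires origins was not called by edgeR in any of its 3 genes. CDC7, the catalytic subunit, had counts of 220, 209 and 216 in control and 253, 714 and 239 in CYT libraries. Only CYT replicate 2 stands far from the rest, and the log2 fold change of 1.12 had an edgeR adjusted p of 0.085. Without CYT replicate 2 its log2 fold change was 0.45. CDC7 was called higher by DESeq2 (log2 fold change 1.15, adjusted p = 0.0384) and by edgeR with the GC content and length correction (0.86, adjusted p = 0.0383). DBF4, the activating subunit, was at -0.27 and its paralog DBF4B at 0.085. The paper reported less full-length DBF4B transcript after knockdown of the splicing factor SRSF1. Values per gene, as used here, cannot show such a change in transcript form. The FPKM ratio of DBF4B to DBF4 was 4.90, 3.16 and 3.91 in control and 12.4, 2.55 and 4.58 in CYT libraries (difference in mean log2 0.42, exact two-sided permutation test, n = 3 per group, p = 0.8).

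GINS, the 4-subunit ring that ties CDC45 to the helicase, was split in direction as well, with GINS3 and GINS4 higher and GINS1 lower. GINS4 (chromosome 8, 41529206 to 41545046, plus strand) had counts of 951, 1037 and 628 in control and 4699, 5222 and 4217 in CYT libraries. Its CPM rose from 53.1 ± 7.14 to 346 ± 22.3 (SD, n = 3), 6.51-fold, with a log2 fold change of 2.70 (SE 0.28, edgeR adjusted p = 0.00052). No other of the 56 genes rose as far. GINS3 (chromosome 16, 58295080 to 58406144, plus strand) had counts of 503, 403 and 494 against 1370, 1158 and 1315, with 29.4 ± 7.20 and 94.5 ± 11.2 CPM (SD, n = 3) and a log2 fold change of 1.69 (SE 0.31, edgeR adjusted p = 0.00403). An antisense gene, AC009118.2, overlaps GINS3 but had at most 22 counts in a library. GINS1 (chromosome 20, 25407727 to 25452628, plus strand) went the other way, with counts of 851, 1665 and 827 against 434, 456 and 380. All 3 CYT libraries lie below the controls. From 67.0 ± 19.1 to 31.1 ± 1.20 CPM (SD, n = 3), GINS1 fell by 1.11 on the log2 scale (SE 0.31, edgeR adjusted p = 0.0241), and lost its call without control replicate 2 (0.0793) or 3 (0.0592) or CYT replicate 1 (0.0779) or 3 (0.0850).

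GINS2 (log2 fold change 0.55, edgeR adjusted p = 0.191) and CDC45 (0.18, adjusted p = 0.664) were not called. The summed FPKM of the 4 GINS genes was 37.3, 47.1 and 45.7 in control and 82.8, 80.4 and 70.4 in CYT libraries, with every CYT library above the controls. The highest of these 4 genes had 7.04, 9.90 and 7.83 times the FPKM of the lowest in control and 5.50, 4.58 and 4.44 times in CYT libraries, a narrower spread. The FPKM ratio of GINS4 to GINS1, chosen after its values were seen, was 0.447, 0.249 and 0.304 in control and 4.33, 4.58 and 4.44 in CYT libraries.

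Of the 4 genes of polymerase alpha and primase, which lay down the first RNA and DNA of each strand, PRIM2 was called. PRIM2, the large primase subunit (chromosome 6, 57314805 to 57646849, plus strand), had counts of 644, 737 and 541 in control and 221, 303 and 211 in CYT libraries. Its CPM of 39.4 ± 0.526 in control had the smallest SD relative to its mean among the called genes in control, and it was 18.0 ± 3.17 in CYT-treated cells (SD, n = 3). PRIM2 fell by 1.13 on the log2 scale (SE 0.29, edgeR adjusted p = 0.0168), with adjusted p from 0.0537 to 0.0728 without control replicate 1 or 3 or CYT replicate 1 or 3. The small catalytic primase subunit PRIM1 (-0.42, edgeR adjusted p = 0.296), the polymerase subunit POLA1 (-0.68, adjusted p = 0.205) and its partner POLA2 (0.51, adjusted p = 0.224) were not called. The GC content and length correction called POLA1 lower (edgeR adjusted p = 0.0212) and POLA2 higher (0.0245), and with the replicate block added to it PRIM1 was lower (0.0493). POLA1 was also called lower without CYT replicate 2 (0.0114). PRIM1 overlaps the gene NACA on the same strand, which had 1465 to 3595 counts, so its own count is uncertain.

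In edgeR without a correction or block, neither the polymerases that extend the strands nor the clamp, the clamp loader or the single-strand binding protein RPA had a called gene. Other fits called POLD1, PCNA, RFC1, RFC3, RFC4 or RPA2. Over the 6 tested genes of polymerases delta and epsilon, log2 fold changes ran from -0.87 to 0.30. POLD1, the catalytic subunit of polymerase delta, had counts of 5316, 4455 and 2876 in control and 2138, 972 and 2556 in CYT libraries. Its CPM values do not overlap by a narrow margin, with 207 the lowest control and 203 the highest CYT value (log2 fold change -0.87, edgeR adjusted p = 0.135). With the replicate block POLD1 was called lower (log2 fold change -0.98, edgeR adjusted p = 0.0482). POLE, the catalytic subunit of polymerase epsilon, stood at -0.12. PCNA had counts of 2831, 4010 and 3111 against 2559, 3069 and 1931 (log2 fold change -0.15, edgeR adjusted p = 0.720). In FPKM it was at 112 ± 19.3 in control and 103 ± 25.4 in CYT-treated cells (SD, n = 3). The loader genes RFC1 to RFC5 ran from -0.59 (RFC1) to 0.44 (RFC5), and RPA1, RPA2 and RPA3 stood at 0.13, 0.70 and -0.048. RFC4 overlaps EIF4A2 on the opposite strand, which had 1434 to 6074 counts, and the counting is not stated to use strand.

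Okazaki fragments are trimmed by FEN1 and DNA2 and joined by the ligase LIG1. DNA2, a nuclease and helicase (chromosome 10, 68414064 to 68472121, minus strand), had counts of 272, 431 and 337 in control and 89, 164 and 48 in CYT libraries. The CYT value of 48 is the lowest count of any of the 56 genes in a library, and CYT replicate 2 stands above the other CYT libraries. At 21.3 ± 3.93 and 7.25 ± 4.02 CPM (SD, n = 3), DNA2 fell by 1.55 on the log2 scale (SE 0.43, edgeR adjusted p = 0.0245), and was not called without control replicate 2 (0.0501) or 3 (0.0756) or CYT replicate 1 (0.0770) or 3 (0.0744). FEN1 had 4681, 4579 and 4691 counts against 6364, 6665 and 6388, with no overlap and a log2 fold change of 0.72. Its edgeR adjusted p was 0.0704, and it was 0.0392 with the replicate block and 0.0345 in DESeq2. FEN1 overlaps FADS2 on the same strand, which had 1136 to 5754 counts, so reads of FEN1 could be shared with it. LIG1 was at -0.056 (edgeR adjusted p = 0.918).

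Among the genes that protect the fork, CLSPN (claspin, the adaptor that carries the checkpoint signal to CHK1, chromosome 1, 35720218 to 35769967, minus strand) was called just inside the threshold. Its counts were 340, 538 and 365 in control and 586, 926 and 512 in CYT libraries, and its CPM was 25.3 ± 3.87 and 49.3 ± 14.4 (SD, n = 3). The log2 fold change of 0.96 (SE 0.32, edgeR adjusted p = 0.0477) was no longer called in any fit that left out 1 library, with adjusted p from 0.0657 to 0.169, and it was called in 7 of 16 alternatives. TIMELESS and TIPIN, which form the fork protection complex, were at -0.81 (edgeR adjusted p = 0.0814, and 0.0410 with the replicate block) and -0.49 (0.272). WDHD1, which links the helicase to polymerase alpha, was at -0.36.

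Behind the fork, new DNA is wrapped by histones that the chaperones ASF1A and ASF1B hand to the CAF-1 subunits CHAF1A and CHAF1B. ASF1B (chromosome 19, 14119509 to 14136956, minus strand) had counts of 2901, 2626 and 1848 in control and 10319, 6449 and 9812 in CYT libraries. It rose 4.35-fold, from 151 ± 25.4 to 655 ± 172 CPM (SD, n = 3), with a log2 fold change of 2.12 (SE 0.31, edgeR adjusted p = 0.00174). Its paralog ASF1A had counts of 539, 844 and 369 against 260, 439 and 268 and was not called (-0.57, edgeR adjusted p = 0.239). The FPKM ratio of ASF1A to ASF1B was 0.279, 0.482 and 0.299 in control and 0.0378, 0.102 and 0.0410 in CYT libraries. That is a difference in mean log2 of -2.66 with no overlap (exact two-sided permutation test, n = 3 per group, p = 0.1, the smallest p that 3 against 3 allows). Adjusted over the 3 ratios tested, the p was 0.3, and it was 1.0 for the other ratios. CHAF1A (-0.77), CHAF1B (-0.64) and UHRF1 (0.27), which reads hemimethylated DNA for methylation upkeep, were not called by edgeR, with adjusted p of 0.127, 0.138 and 0.536. CHAF1A was called lower with the replicate block (edgeR adjusted p = 0.0304) and with the GC content and length correction (0.0228), and CHAF1B was called lower with that correction (0.0416). CHAF1B overlaps MORC3 on the same strand (117 to 1136 counts), and CHAF1A overlaps UBXN6 on the opposite strand (583 to 3512 counts). Reads could be shared between them.

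**Figure D3:**
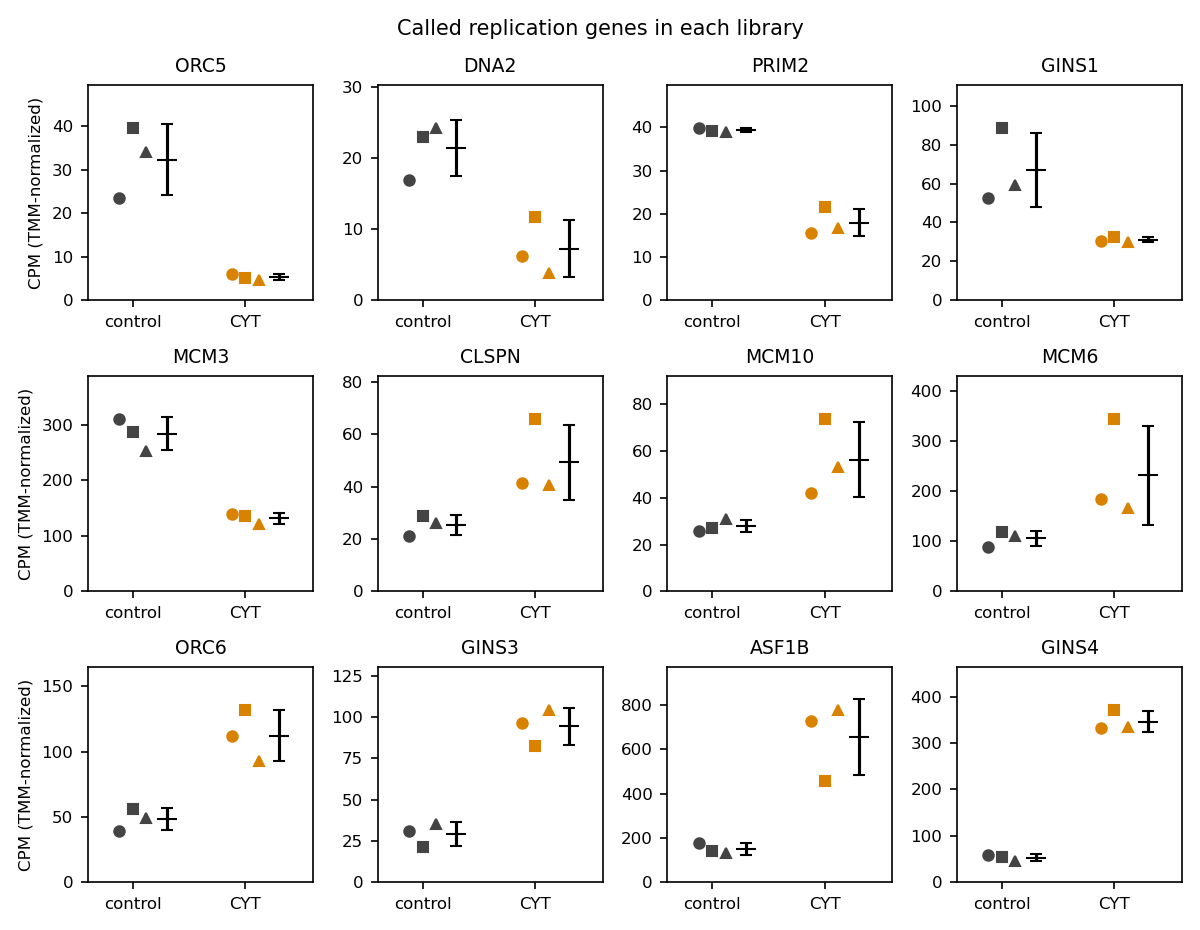
CPM after TMM scaling (y axis, from 0) of the 12 called replication genes in each library (circle replicate 1, square replicate 2, triangle replicate 3), with the mean and SD of each group as a black bar (n = 3). No panel has overlapping groups, and CYT replicate 2 (the square) stands well above the other CYT libraries in DNA2, MCM6, CLSPN and MCM10 and well below them in ASF1B.

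Replicate 2 was the only replicate of either group whose deviations fell as the GC content of the transcripts rose. The rank correlation between a gene's GC content and its deviation from the mean of its group was, over the 56 genes, -0.69 in control replicate 2 and -0.81 in CYT replicate 2, and over 15542 tested genes it was -0.61 and -0.77. In control replicate 1 and in CYT replicates 1 and 3 it was 0.71, 0.60 and 0.71 over the 56 genes, and in control replicate 3 it was 0.021. These points share their libraries, and the deviations within a group sum to 0. In CYT replicate 2 the GC-rich CDT1, POLD1 and POLD2 differed from the mean of replicates 1 and 3 by -1.69, -1.33 and -1.27 on the log2 scale, and the AT-rich CDC7 and MCM6 by 1.42 and 0.98. Log2 fold changes themselves correlated with GC content at 0.26 over the 56 genes and -0.10 over all.

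**Figure D4:**
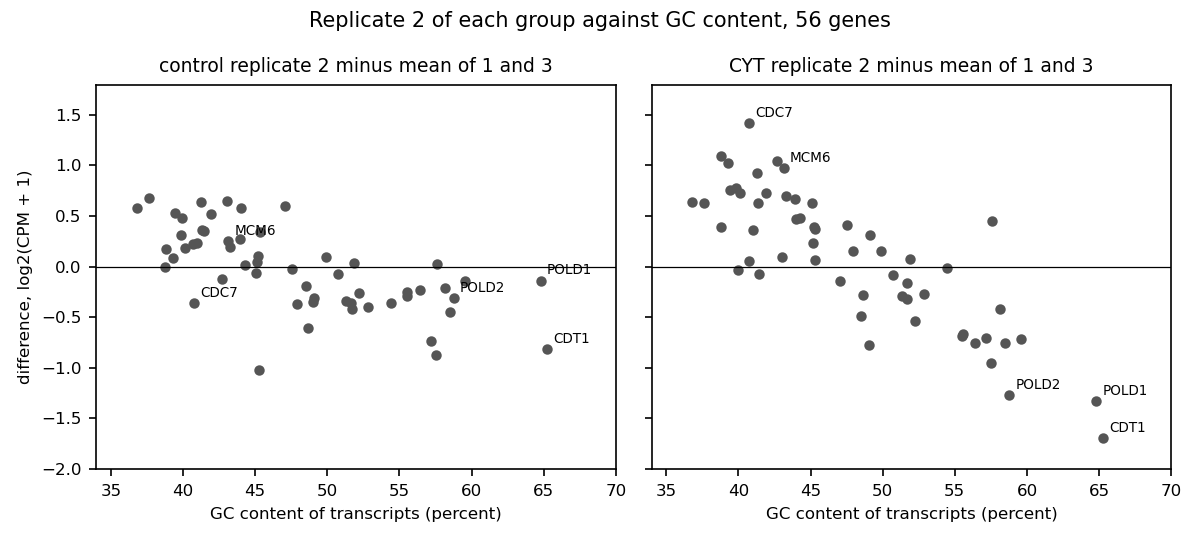
Difference of replicate 2 from the mean of replicates 1 and 3 in log2(CPM + 1) (y axis) against the GC content of the gene's transcripts in percent (x axis) for the 56 replication genes, in control (left) and CYT (right). Values fall as GC content rises in both groups, down to -1.69 for CDT1 and up to 1.42 for CDC7 in CYT replicate 2.

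Calls of replication genes depended on the correction for GC content, on a block for the replicate number and on single libraries. After GC content and length were corrected for, 29 of the 56 genes were called, 11 higher and 18 lower (51.8%, against 46.9% of all genes in that fit). All 12 genes called without it were among them, and of the 17 added, 13 were lower. The added ones include PCNA (log2 fold change -0.55, edgeR adjusted p = 0.0189), RFC3 (-0.62, 0.0148), RFC4 (-0.66, 0.0149), TIPIN (-0.71, 0.00735), ASF1A (-0.76, 0.0128) and, higher, MCM5 (0.98, 0.00503). Shares of all genes by direction are not given for the alternative fits, so their splits into higher and lower have no comparison. Without CYT replicate 2, 19 genes were called, 8 higher and 11 lower, against 35.6% of all genes in that fit. ORC2, ORC3, POLA1, RFC1, TIPIN and WDHD1 were then lower, MCM5 and RPA2 were higher, and CLSPN was lost (0.0657). With the replicate number as a block, 17 genes were called, 8 higher and 9 lower (30.4%, against 39.9% of all genes). ORC2, POLD1, TIMELESS and CHAF1A were added as lower and FEN1 as higher. The split subunit pairs kept their directions in all of these fits, since no called gene changed sign. Without control replicate 3, by contrast, 5 genes were called, 3 higher and 2 lower (8.93%, against 17.6% of all genes in that fit). Without CYT replicate 3, 6 were called, 5 higher and 1 lower (10.7%, against 19.8%).

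Further replication genes gave a like picture in counts. Of 34 other genes of origin firing, fork maintenance and histone supply, 4 were higher and 4 lower (23.5%, against 28.6% of all genes), with a median log2 fold change of -0.030. Higher were RECQL, a helicase (log2 fold change 2.02, edgeR adjusted p = 0.0121), DTL, the adaptor through which CDT1 is degraded in S phase (1.65, 0.00886), CHTF8, a part of an alternative clamp loader (1.63, 0.0117), and POLE4, a small subunit of polymerase epsilon (0.88, 0.0438). RECQL had counts of 580, 948 and 633 in control and 1160, 4461 and 1722 in CYT libraries, with replicate 2 far above the others, and its log2 fold change was 1.30 without CYT replicate 2. Lower were the 3 genes of the CST complex, which brings polymerase alpha to telomeres. CTC1 had counts of 1201, 844 and 586 against 369, 304 and 397, STN1 had 356, 392 and 293 against 156, 162 and 105, and TEN1 had 650, 402 and 266 against 160, 118 and 73. Their log2 fold changes were -1.03, -1.05 and -1.66 (edgeR adjusted p = 0.0445, 0.0276 and 0.0145), and the groups do not overlap in any of them. Without control replicate 1, none of the 3 was called (0.174, 0.0771 and 0.0599). CTC1 and STN1 were called in only 1 of the 6 leave-out fits, that without CYT replicate 2, and TEN1 was also lost without CYT replicate 3 (0.0574). SSRP1, a subunit of the histone chaperone FACT, was lower as well (-1.15, edgeR adjusted p = 0.0116), while its partner SUPT16H was not called (0.17). The call of SSRP1 was lost without CYT replicate 1 (0.0530), that of RECQL without control replicate 1 (0.0541), those of CHTF8 and DTL without control replicate 3 (0.0554 and 0.0517), and that of POLE4 in 5 of the 6 leave-out fits.

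The libraries held 14050849 to 17770102 counts in control and 13056270 to 14106017 in CYT. The 56 genes took up 0.569% to 0.576% of the counts in control and 0.650% to 0.675% in CYT libraries, and without ASF1B and GINS4 0.548% to 0.559% and 0.559% to 0.569%. ASF1B and GINS4 had the largest rises of the 56 genes, and no gene that fell was left out in turn. Mitochondrial ribosomal RNA made up 0.148% to 0.221% of counts in control and 1.56% to 1.74% in CYT libraries, and antisense genes 0.253% to 0.291% and 0.553% to 0.572%. Their part in the results was not tested. All 5 markers of MDA-MB-231 cells were detected. Their summed level was 3646 to 4040 CPM in control and 1656 to 1804 CPM in CYT libraries. VIM, EGFR and AXL were lower after CYT (called in 16, 16 and 6 of the 16 alternatives), while CD44 and CAV1 were not called. Of 7 luminal epithelial markers, ESR1 had at most 4, PGR at most 3, EPCAM at most 12 and CDH1 at most 16 counts in a library, ERBB2, GATA3 and FOXA1 were detected and not called, and the summed level was 51.2 to 89.7 against 31.4 to 58.7 CPM. Of 5 fibroblast markers (19.1 to 35.8 against 3.99 to 6.42 CPM in sum), DCN was at 0, LUM had at most 1 and COL1A2 at most 6 counts, while COL1A1 (counts of 316, 219 and 192 against 55, 48 and 35) and PDGFRB (262, 140 and 132 against 29, 7 and 40) were detected and called lower. Of the leukocyte markers reported here, CD3E was at 0, PTPRC was at 0 in control and had 7, 2 and 2 counts in CYT libraries, and CD68 had 378, 163 and 90 against 204, 47 and 88 counts and was not called. Their summed level was 6.47 to 23.4 CPM in control and 3.49 to 14.9 CPM in CYT libraries.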

How the data were processed

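RNA of 3 control and 3 CYT libraries was analysed, grouped by the sample labels. Per the methods, the authors separated mRNA, sequenced it on an Illumina platform, removed low-quality, adapter and ribosomal reads, and aligned clean reads with Hisat2. The submitters' processing notes name FastQC 0.12.1 and the build hg38. The authors deposited a raw count and an FPKM value (from Stringtie, per the methods) of each gene in each library. The counting program and its use of strand are not given in the sources used here, so overlapping genes are uncertain.

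Counts were tested with edgeR 4.0.16 in R 4.3.3 (TMM scaling, filterByExpr with a minimum count of 10, quasi-likelihood test of CYT against control), with Benjamini-Hochberg adjustment over 15572 genes. A gene was called at an adjusted p under 0.05, and as a DEG with an absolute log2 fold change over 1 as well. Fold changes are from this fit, and standard errors follow from the F statistic. The biological coefficient of variation was 37.5%. Replicates of a group correlated at 0.904 to 0.971 and differed by far more than sampling noise (chi-square per gene of at least 25.0). In the 10160 genes whose count never fell under 50, count and FPKM implied the same length within 0.00209%. Ratios of partner genes used FPKM and an exact permutation test. Loci, GC content and exonic length came from GENCODE 29 (GRCh38), whose locus was that of the table for 55 of the 56 genes. Of these, 18 overlap another counted gene with over 60 counts in all, among the called ones only GINS3. The 11 pseudogenes named after them had at most 27 counts in a library. The tests were tried on simulated counts.

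Deviations of same-numbered libraries correlated at 0.188, 0.458 and 0.124 for replicates 1, 2 and 3. Control 1 correlated more with CYT 3 (0.303), and control 3 more with CYT 1 (0.201), so only replicate 2 matched best by number. The labels do not say what the number marks. Pairing is thus not established, and the replicate block served as an alternative only. Alternatives were a replicate block, protein-coding genes only, upper-quartile normalization, DESeq2 1.42.0, limma 3.58.1 on log2(FPKM + 1) or log2(FPKM + 0.1), other filters (none, or a mean of 5 CPM or more), a correction for GC content and length with and without the block, and leaving out each library. The 56 genes and the other lists were chosen with earlier results of these data known. All called genes of the 56 were named, with their count in every library, as were the called genes of the list of other replication genes, with counts for some of them. Of the cell type markers, 1 is not reported here.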

Additional observations from a re-analysis of the deposited data

How the results depend on the processing

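No called gene changed direction in any of the 16 alternatives, but its call often did not hold. The replicate block added ORC2 (edgeR adjusted p = 0.0259), POLD1 (0.0482), FEN1 (0.0392), TIMELESS (0.0410) and CHAF1A (0.0304) to the 12 calls, so that 17 were called, with 9 lower, and it changed no other call of the 56 genes. Among the other replication genes the block added MTBP (0.0421) and TRAIP (0.0274) as lower and ATAD5 (0.0322) as higher. The GC content and length correction gave 11 higher and 18 lower replication genes, and 19 lower with the replicate block. Of the 34 other replication genes, 7 were higher and 7 lower in both fits. In each, 51.8% of the 56 genes were called, against 46.9% of all genes, and 45.5% with the block. Both limma fits called 4 genes higher and 9 of the 56 in all (16.1%), against 28.4% of all genes with a pseudocount of 0.1 and 28.2% with 1. Upper-quartile normalization and limma on log2(FPKM + 1) left 2 lower DEGs each, and upper-quartile normalization left 2 of the other replication genes lower. The share of DEGs among all genes in these fits is not given, so the counts have no comparison. Upper-quartile normalization also shifted the median of all genes to 0.16, and relative to it the 56 genes had a median of -0.13. That relative median was -0.61 with no filter, where 32060 genes enter, and -0.037 with a mean of at least 5 CPM. The median of the 56 genes was 0.025 under upper-quartile normalization and -0.023 with a mean of at least 5 CPM. Their cause was not tested.

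Uncalled genes near 0 changed sign. MCM4 was 0.015 with upper-quartile normalization. POLE was 0.034 with upper-quartile normalization, 0.19 with GC content and length correction and 0.21 with the replicate block added. POLE2 was -0.052 and -0.048 in the latter pair of fits. RPA3 was 0.096 with upper-quartile normalization, 0.053 with at least 5 CPM and 0.020 with protein-coding genes only, and LIG1 was 0.097, 0.050 and 0.030, and 0.23 with either GC correction.

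With 1 library left out, 3 to 8 replication genes were called higher and 1 to 11 lower. Those calls were 8.93% to 33.9% of the 56 genes, against 17.6% to 35.6% of all genes in the same fits. Of the 56, 3 to 5 were higher and 1 to 6 lower DEGs, for which no share over all genes is given. Lower calls were fewest without CYT replicate 3 and most without CYT replicate 2. Of the 34 other replication genes, 1 to 4 were higher and 1 to 4 lower in these same fits, and the median of the 56 ran from -0.21 to -0.052. Ranges that crossed 0 were -0.16 to 0.34 for ORC4, -0.50 to 0.084 for MCM8, -0.59 to 0.0061 for DBF4, -0.21 to 0.29 for DBF4B, -0.52 to 0.031 for POLD2, -0.22 to 0.37 for POLD3, -0.32 to 0.20 for POLE, -0.22 to 0.25 for POLE2, -0.0019 to 0.23 for RPA1, -0.24 to 0.15 for RPA3 and -0.25 to 0.16 for LIG1. The log2 ratio differences ran from -0.43 to 0.51 (CDT1 to GMNN), from -0.20 to 0.94 (DBF4B to DBF4) and from -3.12 to -2.41 (ASF1A to ASF1B). The lowest counts in a library were 48 for DNA2, 50 for DBF4 and 59 for ORC5, and the part of depth in their spread was not tested.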
